A study of Mus musculus with 5 samples.

Results

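Podocyte nuclei of healthy mouse kidney were examined across 3 single-nucleus RNA libraries. They are the 186 nuclei that carry the podocyte label in the authors' deposited annotation, out of 7864 nuclei in these libraries and 17542 barcodes in the series. They made up 1.83% of sNucDrop-seq nuclei (55 of 3011, exact binomial 95% interval 1.38 to 2.37%), 2.82% of DroNc-seq nuclei (78 of 2769, 2.23 to 3.503%) and 2.54% of 10x nuclei (53 of 2084, 1.91 to 3.31%). The label alone chose them, with no threshold on any gene. The study set whole-cell Drop-seq beside these 3 nucleus methods on healthy kidney, and added 10x nuclei of a kidney at day 14 of unilateral ureteral obstruction (UUO), a surgical model of fibrosis. Each of the 5 groups is 1 library. The labels' protocol names C57BL/6 for the mouse whose kidney was dissociated into cells. The labels used here state neither the strain of the nucleus donors nor sex, age or the number of animals behind a library, and they name no allele or drug. Nuclei were freed with a lysis buffer and a Dounce homogeniser, so the values are RNA recovered with nuclei. Mitochondrially encoded transcripts made up 0.237%, 0.0846% and 0.0419% of podocyte UMIs in sNucDrop-seq, DroNc-seq and 10x. In the annotation of whole-cell Drop-seq the podocyte label falls on 2 of 3531 barcodes.

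Podocytes are the epithelial cells that wrap the capillaries of the kidney glomerulus. Their interlocking foot processes, held in shape by actin, are bridged by the slit diaphragm, a cell junction built around nephrin. With the glomerular basement membrane beneath it, this junction forms the filter that keeps protein in the blood, and inherited loss of its parts gives nephrotic syndrome. Podocytes do not normally divide, and they supply the glomerulus with signals such as VEGF-A.

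Counts were summed over the podocyte nuclei of a library and, separately, over all its other nuclei, and each sum was scaled by its total UMIs to CPM (counts per 1e6 UMIs). The podocyte sums held 129438, 194966 and 112059 UMIs in sNucDrop-seq, DroNc-seq and 10x, and the sums of the other nuclei between 2835078 and 5669164. Median UMIs per podocyte nucleus were 1623, 1868 and 1565, against 1138, 1588 and 1157 in the other nuclei of the same library. A gene at 0 in a podocyte sum could have a level of up to 23.2, 15.4 and 26.8 CPM, the worth of 3 counts. Between the healthy 10x and UUO libraries 23 barcode sequences recur, of which 1 is labelled podocyte in one of them, and Drop-seq shares 1 with sNucDrop-seq. Xist, the transcript that coats the silenced X chromosome, had 7674 counts in the DroNc-seq library and 3893 in healthy 10x, but 0 in sNucDrop-seq and 3 in UUO. The Y-linked Uty ran the other way, with 683 counts in sNucDrop-seq and 2985 in UUO against 27 and 11.

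The marker genes of the label are described first. Nphs1, which encodes nephrin, stood at 1313 CPM in sNucDrop-seq podocytes (95% Poisson interval 1123 to 1526), at 1523 CPM in DroNc-seq ones (1355 to 1707) and at 1017 CPM in 10x ones (839 to 1222). In all other nuclei it stood at 28.9, 29.1 and 9.17 CPM. The podocyte value was the higher one in each library, and no other class of at least 20 nuclei came above 92.4 CPM, the endothelium of the 10x library. The authors' labels rest on these same counts, so this separation describes the label and is no check of it. Magi2, a membrane-associated scaffold that binds nephrin, took 3.24%, 5.79% and 3.11% of all podocyte UMIs, or 32378, 57877 and 31091 CPM, against 1492, 1869 and 1466 CPM elsewhere. Wt1, the transcription factor that marks podocytes in the adult kidney, stood at 618, 903 and 866 CPM against 6.22, 15.5 and 11.3 CPM. Its next-highest class was the descending limb in sNucDrop-seq (44.5 CPM) and DroNc-seq (139 CPM) and the endothelium in 10x (185 CPM, 88.6 to 340, from 10 counts in 46 nuclei). Poisson and binomial intervals here cover counting error only.

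**Figure D1:**
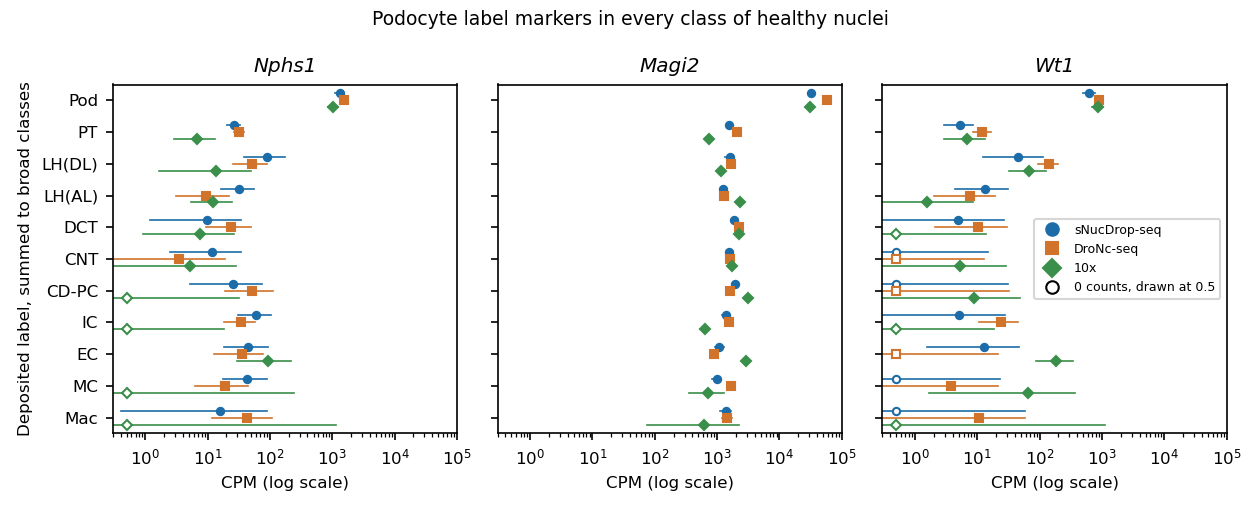
Levels of Nphs1, Magi2 and Wt1 (CPM of the summed nuclei, log scale) in the 11 classes of healthy nuclei, by library, with 95% Poisson intervals; open symbols are classes with 0 counts. The podocyte row (Pod) lies to the right of every other class in each panel, and Magi2 is the marker with the highest level outside podocytes, at 1466 to 1869 CPM over all other nuclei.

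In single nuclei the 3 genes were found together in most podocytes. All 3 had a UMI in 35 of 55, 61 of 78 and 37 of 53 podocyte nuclei, and 0 nuclei had none of them, while 4, 14 and 4 of the other nuclei had all 3. After thinning each nucleus to 500 UMIs, Nphs1 was found in 49.1% (35.4 to 62.9%), 50.0% (38.5 to 61.5%) and 45.3% (31.6 to 59.6%) of podocytes, in the library order given above. Proximal tubule nuclei, which should lack it, gave 1.92%, 1.68% and 0.463% at the same depth. Without thinning the shares were 90.9%, 88.5% and 83.0% in podocytes and 3.84%, 4.24% and 1.13% in proximal tubule, at median depths of 1623, 1868 and 1565 against 1179, 1544 and 1491 UMIs. Magi2 was found in every thinned podocyte nucleus (55, 78 and 53), but also in 49.8%, 52.0% and 26.1% of proximal tubule nuclei, so its presence alone does not separate the classes. Wt1 was found in 40.0%, 34.6% and 35.8% of thinned podocytes and in 0.220%, 0.498% and 0.772% of thinned proximal tubule nuclei.

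The 2 Drop-seq barcodes of this label held 3565 UMIs in all, with 1 count each of Nphs1 and Ptpro, 0 of Magi2, Wt1, Synpo and Podxl, and 79 of the proximal tubule transcript Kap. They are not used further.

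Across all genes, 547 of 12738 (4.29%), 608 of 13154 (4.62%) and 484 of 10914 (4.43%) were called higher in the podocytes of sNucDrop-seq, DroNc-seq and 10x. Called means at least 2-fold apart with the exact 95% interval of the ratio clear of 1, among genes with at least 20 counts in the 2 sums. Called lower were 400 (3.14%), 877 (6.67%) and 452 (4.14%). With median-of-ratios scaling the DroNc-seq split became 693 higher and 661 lower. In all 3 libraries 209 of 10234 genes (2.04%) were called higher and 36 (0.352%) lower. The median log2 ratio over all genes was -0.22, -0.33 and -0.25. The authors' labels rest on these same counts and each library is 1 sample, so the ratios describe the podocyte nuclei and no test was made.

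The 15 leading genes, by the lowest interval bound over the 3 libraries, included Ptpro, Sgip1, Wt1, Synpo, Sema3e, Tdrd5, Nebl, Nphs1, Srgap1, Lmx1b, Thsd7a, Wt1os, Sncaip and Myom2. They were 26.9-fold to 167-fold higher than in other nuclei, and podocytes were the highest class of at least 20 nuclei for all 15 in each library, by at least 3.47-fold. Sncaip and Myom2 closed the list with bounds of 4.42 and 4.36 on the log2 scale, and Magi2 (4.34) and Podxl (4.30) fell just outside it. Median gene length was 79.5 kb for the 15 and 118 kb for the 209 genes called higher in all 3 libraries, against 33.8 kb for all genes measured in all 3. With genes split by length into 5 groups, the share called higher was 2.81%, 3.15% and 1.71% among the shortest and 7.53%, 8.10% and 9.09% among the longest; the part of gene length in the calls was not tested.

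Ptpro encodes a receptor tyrosine phosphatase of the apical foot process membrane, known as GLEPP1. Its 210.9 kb gene lies on chromosome 6 (GRCm38, the build also called mm10, 137252319 to 137463233, plus strand). Podocyte levels were 1275, 2713 and 1499 CPM, against 15.1, 36.3 and 20.1 CPM in other nuclei, a log2 ratio of 6.40 (5.98 to 6.83), 6.22 (5.99 to 6.46) and 6.22 (5.78 to 6.68). Sema3e, which encodes a secreted semaphorin, a guidance cue for axons and vessels, lies on chromosome 5 (14025276 to 14256689, plus strand). Its podocyte levels of 603, 774 and 634 CPM stood 63.1-fold, 66.5-fold and 66.5-fold above other nuclei. The next-highest class for Sema3e, the endothelium or the descending limb, had no more than 37.0 CPM.

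Promoters of the leading genes were searched for GTGGGAG, the core of a WT1 binding element, on both strands (CTCCCAC on the other), in the 250 bases before each RefSeq start. Of 16 genes searched, the 15 and Magi2, 11 had a window in the RefSeq table. The letters were found in windows of Ptpro, Sema3e and Wt1os, 3 of 15 windows, and in 8.25% of all 32851 windows of this length. Both protein-coding matches are shown because Ptpro and Sema3e are among the leading 5 genes and bear the match in different places, 35 and 163 bases before the start. Capitals mark the match, bases run 5′ to 3′ along the plus strand, and the windows are chr6:137252049-137252298 and chr5:14025026-14025275 in RefSeq's GRCm38.p6. A match is a run of letters and not a bound site.
Ptpro: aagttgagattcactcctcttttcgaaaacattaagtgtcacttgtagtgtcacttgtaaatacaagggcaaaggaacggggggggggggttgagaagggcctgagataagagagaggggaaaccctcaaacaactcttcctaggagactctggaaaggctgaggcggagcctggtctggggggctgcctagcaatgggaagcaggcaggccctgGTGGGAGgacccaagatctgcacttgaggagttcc
Sema3e: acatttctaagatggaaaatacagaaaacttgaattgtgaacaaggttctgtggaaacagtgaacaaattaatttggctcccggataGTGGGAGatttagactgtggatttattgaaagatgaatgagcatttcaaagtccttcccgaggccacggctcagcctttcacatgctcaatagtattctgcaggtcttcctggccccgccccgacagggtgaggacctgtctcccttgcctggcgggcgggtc
TAATTA, the core bound by LIM homeodomain factors such as LMX1B, was found in 1 of the 15 windows, that of Magi2, and in 4.84% of all windows. Wt1, Synpo, Sncaip and Myom2 were among the genes with no window.

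Some leading genes lie beside another transcript. Wt1 and Wt1os, a noncoding transcript of the other strand, start 19 bases apart on chromosome 2 and run away from each other. Wt1os stood at 533, 959 and 241 CPM in podocytes against 8.22, 11.5 and 5.64 CPM in other nuclei, so that both transcripts of this divergent pair were podocyte-high in each library. Tdrd5, a tudor-domain protein known from germ cells, stood at 371, 764 and 312 CPM against 5.55, 10.1 and 2.12 CPM. Kirrel2 starts 625 bases from Nphs1 on chromosome 7, divergent from it, and is listed at 0 in all 3 nucleus libraries. A gene listed at 0 over a whole library may have been left out by a gene filter before deposit, so such a 0 is not read as absence. Nphs1 overlaps Nphs1os; the labels do not say whether counting used strand, so reads of this pair cannot be told apart.

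Among the other leading genes, Synpo, the actin-associated protein synaptopodin, stood at 888, 1929 and 803 CPM against 10.0, 20.6 and 12.7 CPM. Thsd7a, an autoantigen of membranous nephropathy, stood at 2959, 4370 and 2258 CPM, and its next-highest class was the intercalated cell in all 3 libraries (496, 374 and 556 CPM). Srgap1, a GTPase-activating protein of Slit and Robo signalling, stood at 1359.7, 3401 and 1794 CPM against 35.8, 75.7 and 56.4 CPM. Lmx1b, a LIM homeodomain transcription factor, stood at 216, 215 and 294 CPM against 4.67, 5.64 and 1.76 CPM. DroNc-seq gave the highest value for Synpo, Thsd7a and Srgap1, while Lmx1b differed between libraries by less than its intervals (144 to 313, 155 to 291 and 203 to 414 CPM). Sgip1, an adaptor of endocytosis, Nebl, the actin-binding nebulette, Sncaip, which encodes synphilin-1, and Myom2, a myomesin known from muscle, complete the set, with podocyte levels from 143 CPM (Myom2, 10x) to 1223 CPM (Nebl, 10x).

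**Figure D2:**
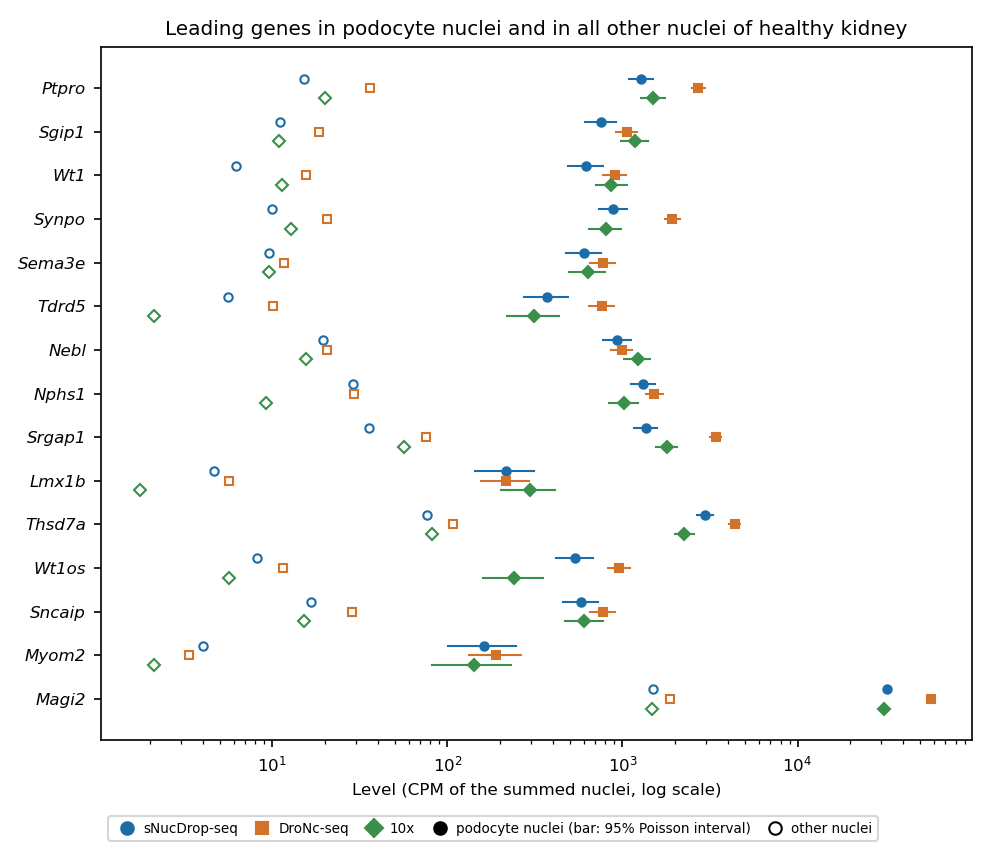
Levels of the leading genes named above and Magi2 (CPM, log scale) in podocyte nuclei (filled, with 95% Poisson intervals) and in all other nuclei (open) of the 3 libraries. Filled and open symbols are apart for every gene, by 21.2-fold (Magi2, 10x) to 167-fold (Lmx1b, 10x).

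Of the slit diaphragm genes and their adaptors, 10 of 20, 10 of 19 and 8 of 17 measured members were called higher in the 3 libraries, beside 4.29%, 4.62% and 4.43% of all genes, with median log2 ratios of 1.23, 1.17 and 0.78. Of 17 measured in all 3 libraries 8 were higher in each, among them Nphs1, Kirrel, Cd2ap, Magi2, Tjp1, Fyn and Nck2. Over all genes 2.04% were higher and 0.352% lower in all 3, and by library 3.14%, 6.67% and 4.14% were lower. These shares and those for higher calls also stand beside the lists below. Kirrel, which encodes the nephrin-binding protein NEPH1, stood at 131, 231 and 187 CPM against 12.7, 18.5 and 8.82 CPM, although mesangial nuclei reached 161 CPM in sNucDrop-seq, above podocytes, and 183 CPM in DroNc-seq. Cd2ap, an adaptor between the junction and actin, was 2.76-fold, 2.25-fold and 2.59-fold higher. Tjp1, the junction scaffold ZO-1, was 4.62-fold, 4.43-fold and 4.39-fold higher. Fyn, the kinase that phosphorylates nephrin, was 5.26-fold, 14.97-fold and 11.9-fold higher, but endothelium stood at 155 CPM in sNucDrop-seq, above the 100 CPM of podocytes, and at 193 and 166 CPM in the other libraries. Magi1, the paralog of Magi2, went the other way, at 162, 226 and 491 CPM against 321, 487 and 1052 CPM, and was called lower in DroNc-seq and 10x. Trpc6, a cation channel mutated in inherited podocyte disease, had 0 counts in all 3 podocyte sums, where the floors of 23.2 and 15.4 CPM in sNucDrop-seq and DroNc-seq lie above its 10.9 CPM in other nuclei. It is listed at 0 in the whole 10x library, where a gene filter before deposit cannot be told apart from absence.

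Surface proteins of podocytes had the highest share of calls among the podocyte lists, with 12, 11 and 10 of 15 measured members, medians of 2.94, 2.95 and 2.42 and 0 called lower. Higher in all 3 were Podxl, Ptpro, Pdpn, Thsd7a, Npr3, Cd59a, Cd55, Clic5, Dpp4 and Enpep. Podxl, the sialomucin podocalyxin that coats foot processes, stood at 927, 1318 and 999.5 CPM against 36.9, 33.3 and 31.7 CPM, with endothelium next at 277, 251 and 388 CPM. Clic5, a chloride intracellular channel protein bound to ezrin, stood at 603, 677 and 348 CPM, and was 9.07-fold, 11.1-fold and 9.31-fold higher. Dpp4 and Enpep, peptidases of cell surfaces that are also found on proximal tubule brush border, were higher all the same. Dpp4 stood at 1205, 1149 and 634 CPM in podocytes against 159, 344 and 233 CPM in the next class. Enpep stood at 379, 431 and 312 CPM.

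Actin regulators of the foot process were called higher in 11 of 36, 12 of 37 and 11 of 36 measured members, with medians of 0.49, 0.28 and 0.66. Higher in all 3 libraries were 7 of 34: Synpo, Arhgap28, Myo1e, Nes, Vim, Rhpn1 and Tns2. Arhgap28, a GTPase-activating protein, stood at 726, 903 and 990.5 CPM, 55.4-fold, 35.8-fold and 25.3-fold above other nuclei. Myo1e, a class I myosin mutated in childhood nephrotic syndrome, was 4.58-fold, 4.66-fold and 4.22-fold higher. The intermediate filament genes Nes and Vim were also higher, Nes at 193, 395 and 62.5 CPM against 11.998, 12.5 and 4.94 CPM and Vim at 54.1, 20.5 and 116 CPM against 3.55, 2.999 and 6.35 CPM, though the Vim values rest on 7, 4 and 13 counts. Actn4, the actin crosslinker mutated in focal segmental glomerulosclerosis, differed less, at 170, 190 and 544 CPM against 129, 125 and 241 CPM, and was called in 10x alone.

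Transcription factors of podocytes gave fewer calls: 4 of 15, 5 of 17 and 2 of 13, with 1, 1 and 2 called lower and medians of 0.47, 0.35 and -0.33. Wt1 and Lmx1b were higher in all 3. Tcf21, a helix-loop-helix factor of podocytes and stroma, had 5 and 13 counts in sNucDrop-seq and DroNc-seq (38.6 and 66.7 CPM) and is listed at 0 in the whole 10x library, which may likewise come from a gene filter.

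Basement membrane and integrin genes were called higher in 6 of 26, 9 of 26 and 5 of 25 measured members and lower in 1, 4 and 1. Itga3 and Itgb5, integrin chains, were higher in all 3, Itga3 3.502-fold, 8.46-fold and 2.75-fold and Itgb5 4.10-fold, 6.09-fold and 4.88-fold. The genes of the mature collagen IV network differed less. Col4a3 stood at 1661, 2472 and 1365 CPM against 1054, 1030 and 1180 CPM, a log2 ratio of 0.66 (0.45 to 0.85), 1.26 (1.13 to 1.40) and 0.21 (-0.03 to 0.44), and was called in DroNc-seq alone, as were Col4a4 and Col4a5. Proximal tubule nuclei reached 1494 CPM for Col4a3 in 10x, above the podocyte value. Lamb1, a laminin chain typical of the immature membrane, was lower in all 3, at 69.5, 51.3 and 62.5 CPM against 171, 169.9 and 172 CPM. Lamb2, the chain of the mature membrane, was 4.35-fold and 4.36-fold higher in sNucDrop-seq and DroNc-seq on 5 and 9 counts, and not called in 10x on 2.

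Of growth factors and secreted signals, 1 of 15 measured in all 3 libraries was higher in each: Vegfa, at 973, 1205 and 892 CPM against 282, 237 and 98.4 CPM, or 3.45-fold, 5.08-fold and 9.07-fold. The list's medians were -0.46, -0.96 and -0.67, below those of all genes. Podocytes had the highest Vegfa of the classes of at least 20 nuclei in each library.

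Guidance genes were mixed, with 8 of 39, 8 of 37 and 9 of 34 called higher, 3, 6 and 0 lower, and medians of -0.27, -0.75 and 0.02. Higher in all 3 were Robo2, Sema3e, Sema3g, Sema5a, Ephb1, Efnb1 and Unc5c. Robo2, a Slit receptor that binds the nephrin complex, stood at 2063, 2677 and 2177 CPM against 123, 275 and 76.2 CPM, but mesangial nuclei stood at 1475 CPM in sNucDrop-seq and at 3458 CPM, above podocytes, in DroNc-seq. Its ligand Slit2 was lower, at 92.7, 231 and 428 CPM against 353, 547 and 695 CPM, and called so in sNucDrop-seq and DroNc-seq. Sema3g, a secreted semaphorin of podocytes and endothelium, was 36.5-fold, 59.8-fold and 16.3-fold higher, on 64, 72 and 9 counts. Efnb1, an ephrin found at the slit diaphragm, was 5.66-fold, 8.31-fold and 6.07-fold higher on 7, 14 and 6 counts.

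The list of synaptic and neuronal genes gave 4 of 29 higher in all 3 libraries, Ncam1, Rab3b, Opcml and Dach1, and 1 lower, Tenm2. Dach1 is counted in this list although it encodes a transcriptional cofactor and not a synaptic protein. By library 6, 7 and 6 of 30 measured members were called higher and 2, 8 and 2 lower, with medians of 0.09, -0.37 and -0.51. The shares of all genes in all 3 libraries were 2.04% higher and 0.352% lower. Opcml, a neuronal cell adhesion protein, stood at 201, 241 and 1098 CPM against 10.9, 8.996 and 15.2 CPM. It was found in 16.4%, 10.3% and 47.2% of podocyte nuclei, so its counts came from few nuclei in sNucDrop-seq and DroNc-seq. Dach1, a transcriptional cofactor, stood at 1908, 5011 and 2668 CPM and was 4.36-fold, 8.06-fold and 4.89-fold higher, with distal or connecting tubule next at 1447 to 1856 CPM. Pard3b, a polarity protein, stood at 3137, 6191 and 4337 CPM against 398, 545 and 636 CPM. It had a UMI in 98.2% and 98.1% of podocyte nuclei of sNucDrop-seq and 10x and in all 78 of DroNc-seq. Of the 18 polarity genes 13 were measured in all 3 libraries, and Pard3b was the 1 higher in each. By library 2 of 14, 4 of 15 and 2 of 13 polarity genes were called higher and 0, 1 and 1 lower. Their medians were -0.32, -0.35 and -0.43.

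Signalling genes gave 3 of 23 higher in all 3 libraries, Plce1, Npr3 and Prkg1, and 1 lower, Itpr2. By library 4 of 26, 5 of 26 and 3 of 23 were called higher and 2, 5 and 3 lower, with medians of -0.33, 0.06 and 0.02. Of all genes 2.04% were higher and 0.352% lower in all 3 libraries. By library 4.29%, 4.62% and 4.43% of all genes were higher and 3.14%, 6.67% and 4.14% lower. Plce1, the phospholipase C epsilon of inherited nephrotic syndrome, stood at 695, 1375 and 1339 CPM, 25.04-fold, 36.1-fold and 20.0-fold above other nuclei. Npr3, the clearance receptor of natriuretic peptides, and Prkg1, the cGMP-dependent kinase downstream of the guanylyl cyclase receptors, were both higher, Npr3 9.85-fold, 15.2-fold and 30.9-fold and Prkg1 2.52-fold, 3.29-fold and 10.7-fold. Prkg1 was higher still in mesangial nuclei of sNucDrop-seq and DroNc-seq (2473 and 4619 CPM). Complement regulators Cd55, Cd59a and Cd59b were higher in all 3. Cdkn1c, the cell cycle inhibitor p57 that marks resting podocytes, was 12.2-fold, 19.4-fold and 33.7-fold higher. Of the list of cell division genes 1 of 14 was measured in all 3 libraries, and it was not called.

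Mouse orthologs of human nephrotic syndrome genes overlap the lists above. Of 53 measured in all 3 libraries 13 were higher in each, among them Nphs1, Wt1, Plce1, Cd2ap, Myo1e, Ptpro, Magi2, Lmx1b, Itga3, Tns2, Kirrel and Podxl. Called higher in each library were 21 of 58, 24 of 58 and 15 of 53, with medians of 0.63, 0.59 and 0.53. The share of all genes higher in all 3 libraries was 2.04%. The members and lists were drawn up with results of these data known, so these counts are a description.

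**Figure D3:**
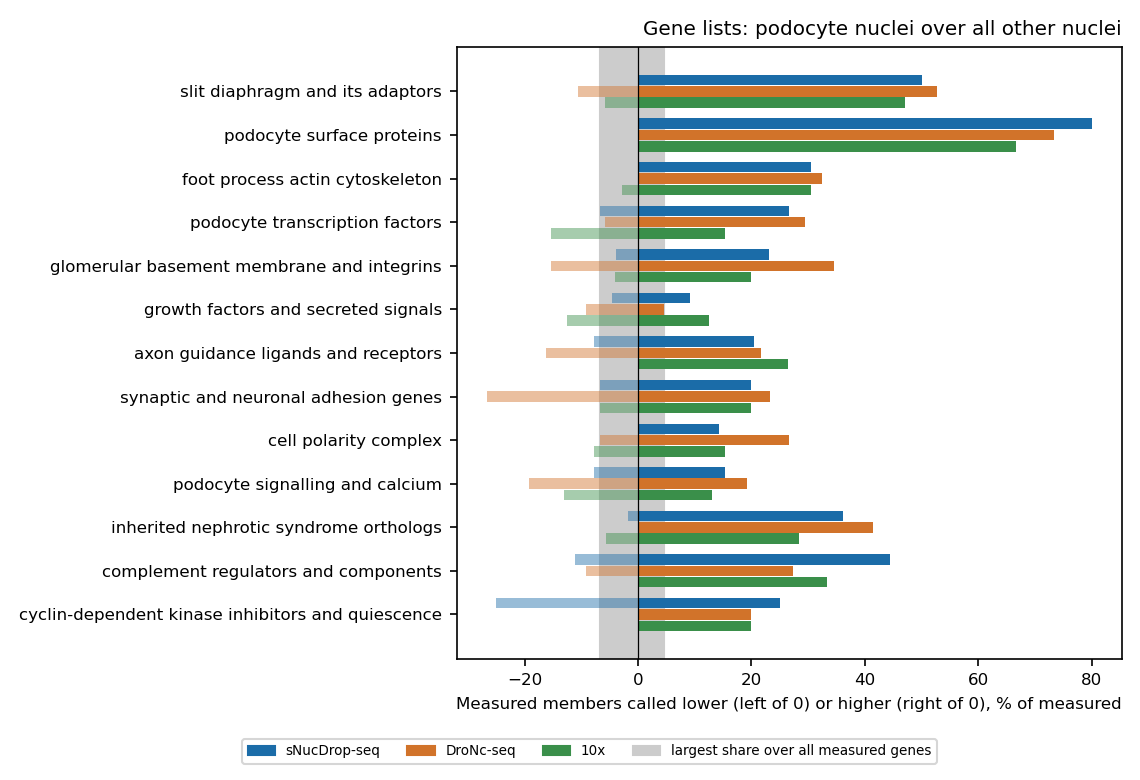
Share of measured members (% of measured) called higher (right of 0) or lower (left of 0, paler) in podocyte nuclei, for 13 gene lists and 3 libraries. The grey band spans the largest shares over all measured genes, 6.67% lower and 4.62% higher; the surface protein bars, 12, 11 and 10 of 15 members, are the longest.

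The lowest genes include several of the distal nephron. The 8 with the most distant bound on the low side were Slc4a9, Slc12a3, Mecom, Ghr, Fam13a, Atp6v0a4, Slc26a4 and Itpr2, of which Slc4a9, Fam13a, Slc26a4 and Itpr2 were called lower in all 3 libraries. Slc26a4, the anion exchanger pendrin of intercalated cells, stood at 23.2, 25.6 and 89.2 CPM in podocytes against 301, 354 and 250.4 CPM in other nuclei, and at 5508, 4364 and 3084 CPM in intercalated nuclei. Slc12a3, the thiazide-sensitive transporter of the distal tubule, stood at 147 CPM in sNucDrop-seq podocytes but at 867 and 901 CPM in those of DroNc-seq and 10x, against 1631, 1629.7 and 1924 CPM in other nuclei. Ghr, the growth hormone receptor, which proximal tubule nuclei hold at 4861 to 11795 CPM, still stood at 2781, 1103 and 3141 CPM in podocytes.

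Transcripts of other cell types were present in the podocyte sums and differed by library. The 15 proximal tubule genes were all detected, summing to 15999.9, 8335 and 4801 CPM in the podocytes of the 3 libraries, which is 64.5%, 39.6% and 23.7% of their level in proximal tubule nuclei. A podocyte nucleus of sNucDrop-seq held 2 to 208 UMIs of these genes (median 11), one of DroNc-seq 0 to 159 (median 4) and one of 10x 0 to 73 (median 2). Loop of Henle genes summed to 2325, 2416 and 5702 CPM (9.91%, 9.54% and 29.6% of their own class) and distal tubule genes to 1383, 4242 and 5711 CPM (4.40%, 12.8% and 15.3%). These sums were uneven over nuclei. The highest podocyte nucleus held 72, 112 and 107 of 301, 471 and 639 loop of Henle UMIs (medians 2, 2 and 3). For distal tubule genes it held 77, 326 and 117 of 179, 827 and 640 UMIs (medians 1, 2 and 2). Endothelial genes reached 827, 395 and 553 CPM, or 10.3%, 4.85% and 9.39% of the endothelial level, with Cdh5 and Tie1 at 0 in DroNc-seq and Kdr and Ehd3 at 0 in 10x. In all other nuclei they summed to 603, 510 and 281 CPM. The podocyte sum was thus the higher one in sNucDrop-seq and 10x and the lower one in DroNc-seq, with median log2 ratios of 0.26, -2.27 and 0.63. Plat, counted in that list, was the 1 member called higher in podocytes in all 3, at 100, 282 and 152 CPM. Mesangial genes summed to 402, 262 and 250 CPM, with Des, Ren1, Rgs5, Col1a1 and Dcn at 0 in all 3 podocyte sums, intercalated genes to 92.7, 103 and 125 CPM, and macrophage genes to 23.2, 41.0 and 44.6 CPM, with Cd68, Lyz2, C1qa and C1qb at 0 in all 3. Principal cell genes summed to 247, 92.3 and 294 CPM, parietal epithelial genes to 433, 385 and 544 CPM, smooth muscle genes to 85.0, 82.1 and 8.92 CPM, and haemoglobin and other red cell genes to 0, 5.13 and 0 CPM. The part of this RNA in the podocyte values was not tested.

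Depth separated podocyte nuclei from each other within a library. Magi2 took 0.659% to 11.2% of a nucleus's UMIs (median 4.11%) among podocytes of sNucDrop-seq, 1.58% to 15.8% (median 6.83%) among those of DroNc-seq and 0.629% to 9.68% (median 3.71%) among those of 10x, while the median other nucleus had 0.110%, 0.111% and 0.0864%. In the 28 sNucDrop-seq podocytes at or under the median UMIs Magi2 made up 5.89% of counts (5.62 to 6.18%), and in the 27 above it 2.45% (2.36 to 2.55%). DroNc-seq gave 7.34% against 5.25% and 10x 5.16% against 2.42%. The summed share of the 15 leading genes moved alike, at 2.36% against 0.982%, 2.81% against 1.88% and 2.17% against 1.04%. The proximal tubule list went the opposite way, at 0.795% against 1.84%, 0.442% against 0.970% and 0.209% against 0.571%. Deeper podocyte nuclei thus carried a smaller share of podocyte transcripts and a larger share of proximal tubule ones in each library. Podocyte nuclei with over 3 times the class median of UMIs numbered 5, 7 and 0. In the fit limited to podocyte nuclei at or under the median UMIs, an alternative added after seeing these values, 513, 582 and 476 genes were called higher and 357, 557 and 324 lower. A doublet caller was not run.

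**Figure D4:**
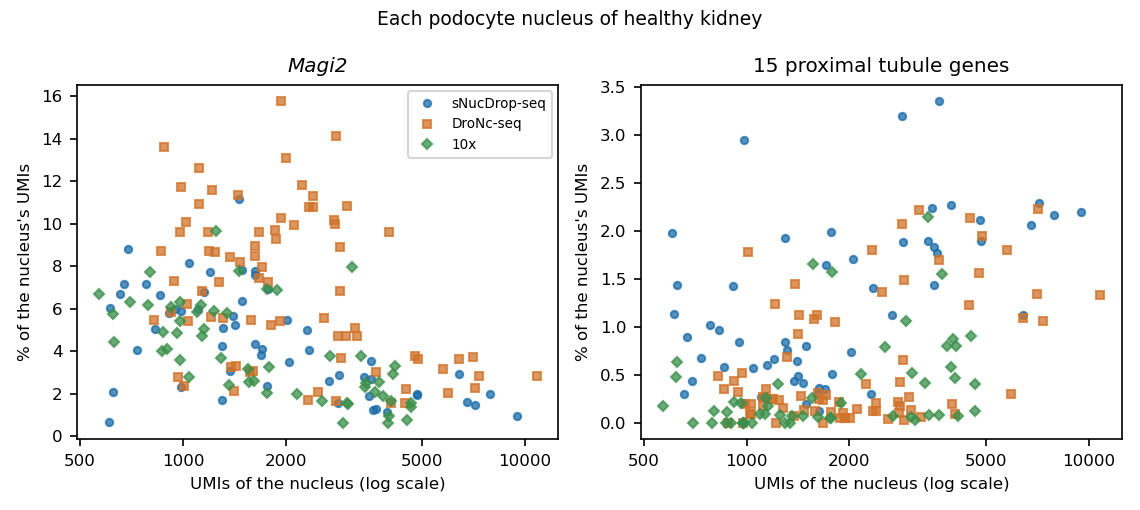
Each point is 1 of the 186 podocyte nuclei, by its UMIs (log scale) and by the share of them from Magi2 (left) or from 15 proximal tubule genes (right). Nuclei above the median UMIs hold a lower summed Magi2 share, 2.45%, 5.25% and 2.42%, than those at or under it, 5.89%, 7.34% and 5.16%.

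Genes found per nucleus were compared at 500 UMIs. Podocyte nuclei had medians of 362 (297 to 414), 337 (284 to 400) and 370.0 genes (319 to 406). The other nuclei had medians of 375, 364 and 370.0, with 128 of the 10x nuclei too shallow to enter. Podocyte medians were below those of other nuclei in sNucDrop-seq and DroNc-seq and equal in 10x, and the ranges overlap throughout.

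Podocyte nuclei of the 3 platforms were then set against each other. DroNc-seq over sNucDrop-seq gave 171 genes higher (5.22% of 3278) and 326 lower (9.95%), 10x over sNucDrop-seq 387 higher (14.9% of 2592) and 414 lower (16.0%), and 10x over DroNc-seq 413 higher (13.7% of 3006) and 340 lower (11.3%). The balance of higher and lower moved with scaling: median-of-ratios gave 306 and 210 for the first pair, 312 and 482 for the second and 316 and 492 for the last, and TMM 257 and 249 for the first pair and 345 and 438 for the last. Of the genes called, 35 and 101, 239 and 260, and 232 and 198 were called in the same direction in the other nuclei of the same libraries. The share of all genes called in those nuclei is not given here, so these overlaps have no background beside them. The sums of other nuclei also hold far more counts than the podocyte sums. Method, kidney, depth and the Xist difference change together here and cannot be told apart.

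Podocyte genes varied between platforms, some as in other nuclei and some not. Magi2 was higher in DroNc-seq than in sNucDrop-seq podocytes by 0.84 on the log2 scale (0.79 to 0.89), against 0.33 in the other nuclei, while 10x differed from sNucDrop-seq by -0.06 (-0.12 to 0.01). Ptpro and Synpo were higher in DroNc-seq than in sNucDrop-seq, by 1.09 (0.84 to 1.35) and 1.12 (0.81 to 1.43), and their change in other nuclei was 1.27 and 1.05. In 10x, Opcml was higher by 2.45 over sNucDrop-seq and 2.19 over DroNc-seq, beyond the 0.48 and 0.75 of other nuclei. Ephb1, an ephrin receptor, was higher by 1.47 and 1.88, where other nuclei gave -0.44 and -0.59. Sema3g was lower in 10x than in both, by -2.62 and -2.20, as was Nes (-1.63 and -2.66), whose other nuclei also gave negative values.

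Some of the genes furthest apart between platforms were so in other nuclei too, and some were not. Btbd2, Zfp568, Ltn1 and Cx3cr1 were higher in 10x podocytes than in both other sets, Btbd2 at 2936 CPM against 7.73 and 20.5 CPM, and its log2 ratios of 8.57 and 7.16 compare with 7.03 and 7.59 in other nuclei. Btbd2 and Ltn1 also stood at 2520 and 2523 CPM in the other 10x nuclei. The annotated span of Cx3cr1 overlaps Csrnp1, Gorasp1 and Xirp1 on the same strand, and the source of its counts was not tested. Proximal tubule transcripts were among those that were lower: Acsm2 stood at 3809, 1221 and 89.2 CPM in the podocytes of sNucDrop-seq, DroNc-seq and 10x, and Kap at 3299, 236 and 196 CPM. Slc12a3 was higher in 10x than in sNucDrop-seq podocytes by 2.62 (1.90 to 3.41), against 0.24 in other nuclei. A single podocyte nucleus held 117 of the 640 distal tubule UMIs in 10x and another 77 of the 179 in sNucDrop-seq. The part of single nuclei in the Slc12a3 ratio was not tested. Kcnq1, a potassium channel subunit, was lower in 10x than in DroNc-seq podocytes, at 232 against 2652 CPM (-3.51, -4.14 to -2.95), against -0.94 in other nuclei. The noncoding Kcnq1ot1 lies within Kcnq1 on the other strand. Whether counting used strand is not stated, so reads of this pair cannot be told apart.

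UUO podocyte nuclei offered a comparison on 1 platform, with 87 nuclei (1.42% of 6147) and 98180 UMIs against the 53 healthy 10x nuclei. Called higher in UUO were 226 of 2147 genes (10.5%) and lower 277 (12.9%), or 140 and 352 with median-of-ratios scaling; the median over all genes was 0.06. Of these, 132 and 163 were called alike in the other nuclei, for which the share of all genes called is not given here. The overlap therefore has no background beside it. The UUO library differs from healthy 10x in Xist and Uty too, so obstruction, animal and library cannot be told apart.

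Of the 15 leading genes, all measured here, 2 were called higher in UUO podocytes, 1 was called lower and 12 were not called, and 9 had intervals that include 0. Their median log2 ratio was 0.08, and since the healthy 10x sum also helped to choose them, these values are a description. Srgap1 stood at 5663 against 1794 CPM (1.66, 1.42 to 1.90), with 1.88 in other nuclei. Nphs1 stood at 744 CPM in UUO podocytes against 1017 in healthy ones, -0.45 on the log2 scale (-0.90 to -0.02). The corresponding value for the other nuclei was -3.07, so its UMIs outside podocytes were far fewer in UUO. Wt1 at 1100.02 against 866 CPM (0.35, -0.06 to 0.76), Synpo at 988 against 803 CPM (0.30, -0.13 to 0.73) and Ptpro at 1589 against 1499 CPM (0.08, -0.24 to 0.41) had intervals that include 0. Magi2 was higher, at 0.63, though under 2-fold, where other nuclei gave -0.74. UUO podocyte nuclei were shallower, with a median of 968 UMIs against 1565 in healthy 10x. Magi2 made up 4.81% of the UMIs of all UUO podocytes. In healthy 10x podocytes it made up 5.16% at or under the median UMIs and 2.42% above it. The part of depth in these ratios was not tested. The intervals for Wt1, Synpo and Ptpro lie within 2-fold in either direction. They cover counting error only, and not differences between animals or libraries.

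Some podocyte genes were called. Tjp1 was higher in UUO podocytes at 1487 against 482 CPM (1.63, 1.17 to 2.10), Clic5 at 1141 against 348 CPM (1.71, 1.18 to 2.28) and Sema3e at 1375 against 634 CPM (1.12, 0.69 to 1.55), and none of these 3 was called in the other nuclei. Kank1, a regulator of actin linked to nephrotic syndrome, stood at 2169 against 999.5 CPM (1.12), with -0.73 in other nuclei. Median-of-ratios scaling moves every log2 ratio of this comparison by -0.19, which takes Sema3e and Kank1 under 2-fold. Fat1, a giant protocadherin of the slit diaphragm, was higher by 2.28, but by 2.38 in other nuclei too. Lower were Lmx1b, at 81.5 against 294 CPM (-1.85, -3.18 to -0.71), Vegfa, at 397 against 892 CPM (-1.17, -1.74 to -0.62), and Opcml, at 40.7 against 1098 CPM (-4.75, -6.65 to -3.36). Vegfa and Opcml were lower in other nuclei as well (-2.40 and -2.09). By list, beside 10.5% higher and 12.9% lower of all genes, the slit diaphragm genes gave 3 higher and 1 lower of 12 measured, the surface proteins 1 and 0 of 11, the actin genes 3 and 0 of 23 and the basement membrane and integrin genes 3 and 0 of 14. Transcription factors gave 2 and 3 of 9, axon guidance genes 2 and 4 of 13, synaptic genes 1 and 3 of 10, signalling genes 0 and 2 of 11, polarity genes 0 and 1 of 6 and secreted signals 1 and 1 of 2. Several of these shares are near those of all genes, and the counts are small.

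At the extremes, Clu, which encodes the secreted chaperone clusterin, had 48 UMIs in UUO podocytes and 1 in healthy ones (5.78, 3.23 to 11.11). Spp1, the matrix protein osteopontin of injured tubule, was higher by 4.52 and Nupr1, a stress-response gene, by 4.41, against 4.52 and 2.81 in other nuclei. Slc34a1, the phosphate transporter of proximal tubule, had 0 UMIs in UUO podocytes against 2026 CPM in healthy ones, at least 66.3-fold lower with the floor of 3 counts. Slc12a1, the loop of Henle transporter, stood at -5.42, against -4.53 in other nuclei. The 15 proximal tubule genes summed to 672 CPM in UUO podocytes against 4801 in healthy ones, and 6 of them were at 0. They were lower in the other nuclei too, at 1851 CPM in UUO against 9600 in healthy 10x. Proximal tubule nuclei held 3222 against 20241 CPM, so the podocyte sums were 20.9% and 23.7% of that level. The part of these tubule transcripts in the podocyte comparison was not tested.

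**Figure D5:**
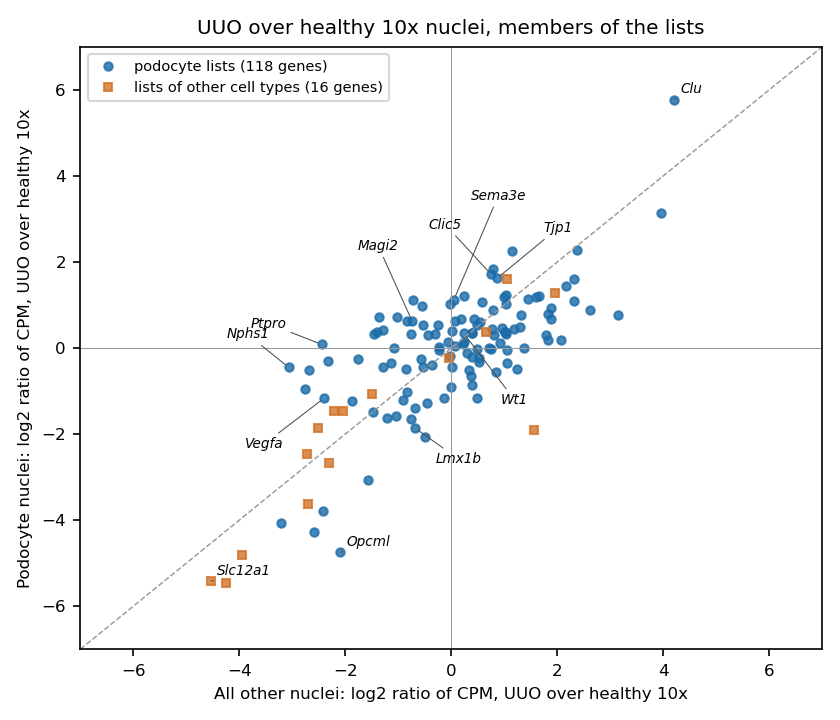
UUO over healthy 10x nuclei as log2 ratios of CPM, in podocyte nuclei (vertical) and in all other nuclei (horizontal), for 118 genes of the podocyte lists (circles) and 16 of other cell types (squares); the dashed line marks equal ratios. Nphs1 lies at -0.45 on the vertical axis and at -3.07 on the horizontal one, and Clu is at the top right.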

How the data were processed

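The authors deposited raw UMI counts per gene and barcode, made with the zUMIs pipeline per the file headers and readme; STAR 2.5.3a and mm10 are named in the submitters' processing notes. Cell labels are the authors' deposited annotation, with 13 labels summed to 11 classes. Counts were summed over podocyte nuclei and over all other nuclei of a library, with no filter on nuclei beyond the deposited one. Ratios of CPM carry exact conditional 95% intervals, levels Poisson and shares Clopper-Pearson intervals, all for counting error only. With 1 library per group no test between samples was possible and no p-value is given. A call needed 20 counts in the 2 sums, a 2-fold difference and an interval clear of 0. Of 19713 genes 19523 matched GENCODE M21. Members and the 28 gene lists were chosen with earlier results of these data known. Named were the label markers, the 15 highest and 8 lowest genes by the interval bound nearest 0 in the least extreme library, list members with a mean podocyte level of at least 200 CPM or 4-fold calls in 2 libraries, members at 0 in all 3 podocyte sums, and the 6 highest and 6 lowest genes per library pair. Tns2, Itga3, Lamb1, Tenm2, Tcf21, the endothelial genes at 0 in 1 library, Nrp2 and Ptprb fall outside this rule and were chosen after their values were seen. Alternatives were TMM (edgeR 4.0.16, R 4.3.3) and median-of-ratios scaling, other count minimums, leaving out proximal tubule nuclei, and other thinning depths; the podocyte nuclei at or under the median UMIs were added after seeing the data. The interval calls were checked on simulated Poisson sums with known fold changes, which carry counting error only. Other steps were not checked in this way. Some genes counted in these lists are not reported here. Python 3.11.15, numpy 2.4.6, scipy 1.17.1 and pandas 2.3.3 were used.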

Additional observations from a re-analysis of the deposited data

Results flagged for a closer look

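Of 12 genes called higher in podocytes of one library and lower in those of another, 3 are members of a gene list or fall under the rule for named genes. Nrp2, a semaphorin and VEGF receptor, had podocyte over other log2 ratios of 0.73 in sNucDrop-seq and 1.75 in 10x but -1.99 in DroNc-seq, on 9, 6 and 3 podocyte counts. Ptprb, an endothelial phosphatase, gave 0.054, 1.76 and -2.26 in the same order, on 8, 9 and 2 counts. Syne1, a nuclear envelope protein, gave -1.76 in sNucDrop-seq on 1 count and 1.70 in 10x on 24, with 0 counts in DroNc-seq podocytes. The difference between libraries was not tested.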

How the results depend on the processing

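No paired analysis was possible because each group is 1 library. Requiring at least 100 counts left 318, 399 and 249 genes called higher in podocytes (sNucDrop-seq, DroNc-seq, 10x), and, as higher and lower, 24 and 28 for DroNc-seq over sNucDrop-seq, 55 and 46 for 10x over sNucDrop-seq, 45 and 52 for 10x over DroNc-seq and 30 and 27 for UUO over 10x; fewer genes were tested. Without proximal tubule nuclei 613 genes were lower in sNucDrop-seq, and with podocyte nuclei at or under the median UMIs, added after seeing the data, 557 were lower in DroNc-seq. TMM gave 257 genes higher for DroNc-seq over sNucDrop-seq, and median-of-ratios 306 higher and 210 lower there and 140 higher for UUO over 10x. Podocytes made up 4.62%, 6.70% and 3.84% of nuclei outside the proximal tubule. Without thinning a UMI was found in 90.9%, 88.5% and 83.0% of podocyte nuclei for Nphs1, 67.3%, 83.3% and 84.9% for Wt1, 74.5%, 89.7% and 69.8% for Synpo, and 81.8%, 96.2% and 88.7% for Ptpro. Without proximal tubule nuclei log2 ratios turned positive for Snhg11 (0.19 in sNucDrop-seq, 0.35 in DroNc-seq), Keg1 (0.32 in DroNc-seq, 1.49 in 10x) and, in 10x, Cubn (1.16), Slc34a1 (1.36), Slc4a4 (0.77) and Acsm2 (0.35). Slc8a1 turned to 0.36 in sNucDrop-seq at or under the median UMIs. Of the values for single named genes, 3930 kept their direction and call, 139 gained a call, 49 lost it and 9 reversed. Scaling moved the all-gene median by up to 0.21 in size on the log2 scale, upward for DroNc-seq over sNucDrop-seq and downward (-0.21) for 10x over DroNc-seq. Depth limits low genes most: 1918, 1796 and 1412 measured genes had 0 podocyte counts.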
